A study of Mus musculus with 15 samples.

Results

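The genes described here encode the subunits of the mammalian SWI/SNF chromatin remodelling complexes, namely the canonical BAF complex (cBAF), the Polybromo-associated BAF complex (PBAF) and the non-canonical BAF complex (ncBAF). The members were chosen by name as the known subunits of these complexes other than actin, and 30 of the 55228 genes listed in each expression file belong to the set. All 30 were found. They fall into 2 ATPases (Smarca4, Smarca2), 14 subunits shared between complexes or counted with the core and accessory modules (Smarcb1, Smarcc1, Smarcc2, Smarcd1, Smarcd2, Smarcd3, Smarce1, Actl6a, Actl6b, Bcl7a, Bcl7b, Bcl7c, Ss18, Ss18l1), 7 subunits assigned to cBAF (Arid1a, Arid1b, Dpf1, Dpf2, Dpf3, Bcl11a, Bcl11b), 4 of PBAF (Arid2, Pbrm1, Brd7, Phf10) and 3 of ncBAF (Brd9, Bicra, Bicral).

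RNA was sequenced from the murine embryonic stem cell (mESC) line 81K1, derived from the line OG2, in which doxycycline switches on an shRNA against Smarcb1. The question was how the RNA of the other subunits stood when Smarcb1, a core subunit, was depleted. The 15 libraries form 5 groups of 3. Knockdown (kd) cells received 1 µg doxycycline per ml medium every day for 48 h, 72 h or 240 h, and untreated control (ctrl) cells were collected at 48 h and 240 h. All 5 groups carry the same shRNA cassette in the Rosa26 locus and were grown in serum with LIF on gelatine. The line is 1 clone, and doxycycline-treated cells without the shRNA were not analysed here, so doxycycline and knockdown cannot be told apart in these comparisons. The 72 h kd group has no control of its own time and was set against the 48 h ctrl, which the 48 h comparison also uses. The labels do not say whether replicates came from separate cultures, so p-values measure only the spread between these libraries.

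SWI/SNF complexes use the energy of ATP to slide or evict nucleosomes and thereby open promoters and enhancers. Each complex is built around an ATPase and a shared core of Smarcc, Smarcd, Smarcb1 and Smarce1 subunits, to which cBAF adds Arid1 and Dpf proteins, PBAF adds Arid2, Pbrm1, Brd7 and Phf10, and ncBAF adds Brd9 with Bicra or Bicral while lacking Smarcb1 and Smarce1. Many positions can be filled by paralogs, and the choice changes with cell type: the embryonic stem cell form favours Smarca4, Smarcc1, Smarcd1 and Arid1a, whereas neurons take up Actl6b, Dpf1, Dpf3 and Ss18l1.

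Library totals lay between 11074998 and 14515300 reads. All 8 markers of embryonic stem cells were detected in every group, and their sum was 1620 to 1940 FPKM in the ctrl groups, 1840 to 2150 at 48 h, 2600 to 2710 at 72 h and 1780 to 1840 at 240 h of knockdown. At 240 h of knockdown Esrrb (-0.80) and Zfp42 (-0.58) of this list were called lower, and at 72 h Dppa5a (1.04) was called higher. Without the fold minimum, Sox2 (-0.35, adjusted p = 0.0132) and Zfp42 (-0.33, adjusted p = 0.00546) were lower at 48 h and Dppa5a (0.39, adjusted p = 0.046) higher. At 72 h, 4 of the 8 passed the adjusted p as higher and 3 as lower, and at 240 h 2 as higher and 3 as lower. Of all genes tested, 20.3%, 56.9% and 38.7% passed at 48 h, 72 h and 240 h. The 48 h kd replicate 2 stood apart from the other libraries of its group, with 2.53% of reads from the mitochondrial genome against 1.25% and 1.29%, and 240 h ctrl replicate 3 had the lowest share at 0.507%. In bulk RNA, fewer cells of a type and less RNA per cell cannot be told apart. Values are FPKM over the whole gene span, introns included. On this scale, levels of members were compared between genes only as paralog shares, to show how these depend on the length used. Sums of FPKM over a marker list are set only against the same list in other groups. For levels between genes, reads of the whole span were divided by the merged exon length and the library total (exon-scaled level). Reads in introns and in overlapping genes were not separated. The span was 28.04 times the exon length for Arid1b and 2.73 times for Smarcd2, so levels and shares between genes are uncertain. Changes are given as log2 fold changes from limma, and a member was called where its Benjamini-Hochberg adjusted p over all genes tested was under 0.05 and its absolute log2 change was above 0.58. Changes are on the scale of log2(FPKM + the FPKM worth of 0.5 reads), which understates those of genes with few reads. A test was possible for 28 members. Actl6b and Dpf3, at 1 to 11 and 0 to 7 reads per library, were below the minimum mean of 10 reads.

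The upstream sequences of 5 subunit genes that the results turn on are given here, namely the 3 Smarcd paralogs, which were lower at 1 or more times, and Smarcc2 and Bcl11b, called members whose spans overlap no other listed gene. Each is the 250 bases before the RefSeq transcription start (GRCm38.p6), 5′ to 3′ on the gene's strand, in lower case, with matches to the letters GGGCGG (GC box) or TATAAA on either strand in capitals.
Smarcd1: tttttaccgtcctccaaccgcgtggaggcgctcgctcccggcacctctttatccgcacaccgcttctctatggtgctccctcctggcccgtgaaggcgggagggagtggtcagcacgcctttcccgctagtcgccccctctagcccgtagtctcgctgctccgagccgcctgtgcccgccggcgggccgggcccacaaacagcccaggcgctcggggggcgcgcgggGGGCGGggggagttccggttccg
Smarcd2: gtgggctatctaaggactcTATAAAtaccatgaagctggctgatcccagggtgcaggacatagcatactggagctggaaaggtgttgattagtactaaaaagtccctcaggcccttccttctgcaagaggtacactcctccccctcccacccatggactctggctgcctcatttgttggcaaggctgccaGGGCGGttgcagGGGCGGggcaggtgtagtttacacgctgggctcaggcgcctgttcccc
Smarcd3: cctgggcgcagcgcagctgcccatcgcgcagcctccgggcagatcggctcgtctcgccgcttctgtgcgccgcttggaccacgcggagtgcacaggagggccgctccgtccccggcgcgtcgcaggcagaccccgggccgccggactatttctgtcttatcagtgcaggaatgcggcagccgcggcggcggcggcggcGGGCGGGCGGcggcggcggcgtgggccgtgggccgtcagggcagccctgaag
Smarcc2: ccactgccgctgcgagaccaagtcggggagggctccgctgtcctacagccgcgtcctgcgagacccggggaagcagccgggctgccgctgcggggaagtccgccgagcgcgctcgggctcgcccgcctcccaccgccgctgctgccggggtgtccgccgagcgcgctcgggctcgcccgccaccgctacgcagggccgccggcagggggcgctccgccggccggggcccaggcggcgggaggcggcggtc
Bcl11b: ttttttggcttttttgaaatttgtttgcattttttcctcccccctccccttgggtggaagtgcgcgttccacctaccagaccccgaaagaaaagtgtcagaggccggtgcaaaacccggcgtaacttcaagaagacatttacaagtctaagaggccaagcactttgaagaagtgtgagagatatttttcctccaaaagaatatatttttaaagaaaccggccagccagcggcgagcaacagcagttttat
The windows lie at chr15:99702037-99702286 (+), chr11:106267633-106267882 (-), chr5:24602003-24602252 (-), chr10:128458986-128459235 (+) and chr12:108003415-108003664 (-). Those of Smarcd2 and Smarcd3 fall wholly, and those of Smarcd1 and Bcl11b mostly, inside the listed gene spans, which begin upstream of the RefSeq start, and which start was used in these cells was not measured. The Smarcd1, Smarcd3 and Smarcc2 windows were rich in CpG, with 29, 38 and 40 CpG dinucleotides and a GC content of 71.2%, 76% and 80.8%. Smarcd2 differed from its paralogs, with 4 CpG dinucleotides and the letters TATAAA. The Bcl11b window held 9 CpG dinucleotides at a GC content of 44.8% and neither motif. The 2 GC box matches of Smarcd3 overlap each other, and no GC box overlaps a TATAAA match.

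RefSeq promoters were found for 24 of the 30 members, 26 windows in all, since Arid1a and Brd9 each have 2. Their median GC content was 68.0%, against 55.6% over the 21263 windows of protein-coding genes, and their median CpG number was 26.5 against 10. The letters GGGCGG, read on both strands, stood in 21 of the 26 windows, and in 42.6% of the windows of protein-coding genes. The letters TATAAA stood in 1 of the 26, that of Smarcd2, and in 11.6% of the protein-coding windows. CCAAT was found in 5 windows, against 35.4%, CCGGAAG (ETS) in 4, against 8.98%, and CACGTG (E-box) in 3, against 6.63%. TGACGTCA (CRE) and the NRF1 motif were in none, against 1.92% and 1.07%. These matches are descriptions of letters, and no binding was measured here.

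In untreated cells the subunit genes spread over a wide range of exon-scaled levels, with Smarca4, Smarcd1, Actl6a, Smarcc1 and Arid1a at the top. Smarca4, the ATPase, had a median of 68.3 over the 6 ctrl libraries (66.6 to 70.7), a level above that of 96.7% of protein-coding genes. Smarcd1 at 67.3 (61.6 to 71.1) overlapped Smarca4. Below them came Actl6a, an actin-like subunit, at 57.5, the scaffold Smarcc1 at 56.0 and the DNA-binding Arid1a at 47.6, each range overlapping the next. Mrpl47 overlaps 1577 bases of Actl6a on the other strand and held reads equal to 39.3% of its own, and Dhx30 overlaps 123 bases of Smarcc1 and held 44.8%, so these levels and ranks are uncertain by the reads shared. The PBAF subunits Phf10 (25.1), Brd7 (24.4) and Pbrm1 (22.3) overlapped each other and Smarcd2 (23.1), and Arid2, which defines PBAF, was at 16.8.

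Smarcb1 stood in the middle of the set at 10.8 (10.4 to 12.3), next to Smarce1 at 10.6 (10.0 to 11.2), and these neighbours did not differ beyond their spread. Of the ncBAF subunits, Bicral was at 13.7, Brd9 at 4.49 and Bicra at 3.55. At the bottom were Bcl11b (0.839) and Bcl11a (0.822), which overlapped each other, and then Smarca2, the alternative ATPase, at 0.131 with 16 to 28 reads per ctrl library. The gene 4931403E22Rik overlaps 9522 bases of Smarca2 on the other strand and held reads equal to 42.2% of its own, so this level is uncertain too. The neuronal Dpf3 (0.0887) and Actl6b (0.0628) were lowest. Of the 30 members, 25 were above 1 and 15 above 10, and the median of protein-coding genes with any read was 3.78.

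**Figure D1:**
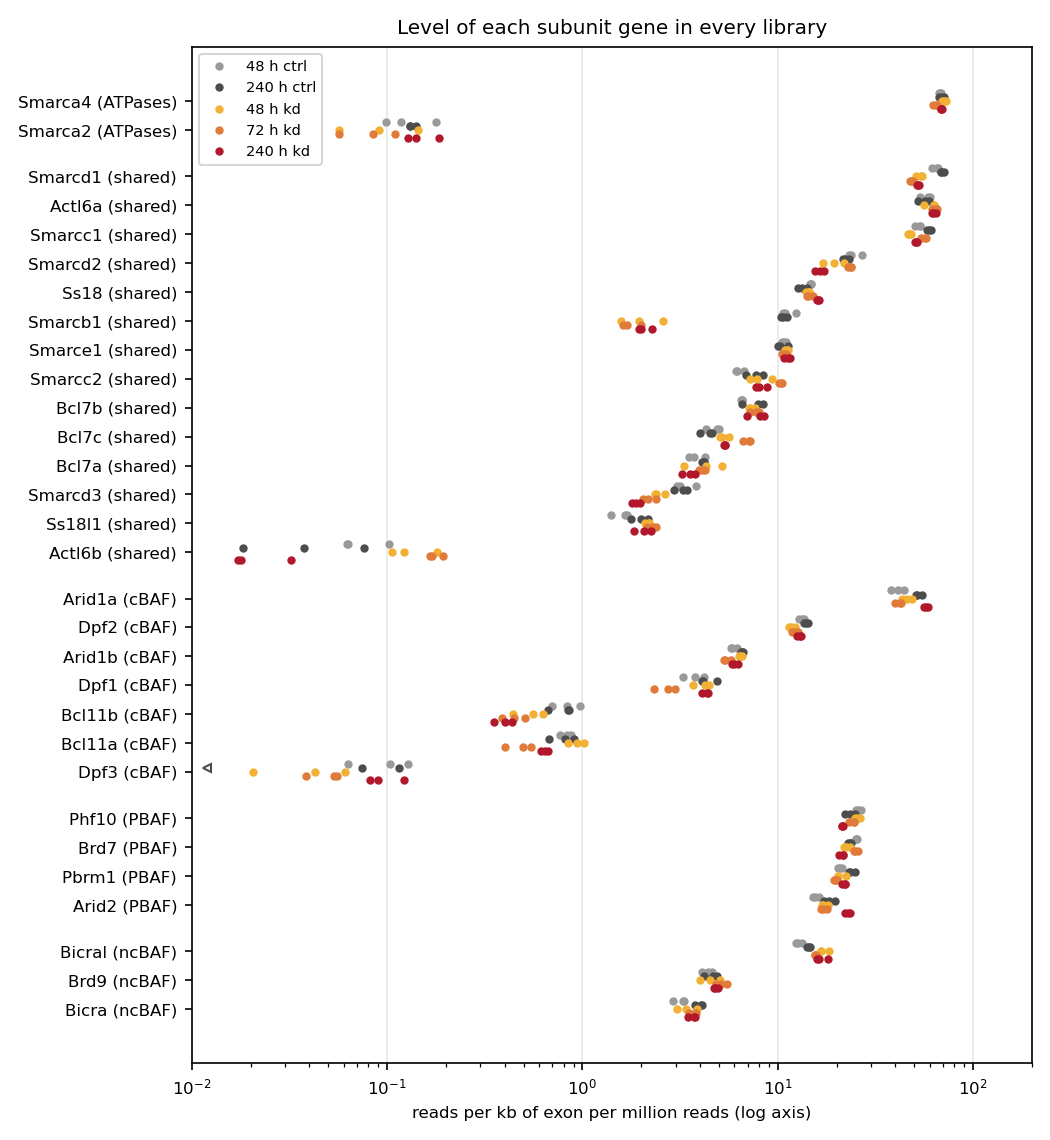
Exon-scaled level of each of the 30 subunit genes (RPKM over exons, log axis) in all 15 libraries, grouped by role and coloured by group; an open triangle marks a library listed at 0. Smarcb1 is the subunit whose kd libraries stand far from its ctrl libraries, while Smarca4 and Smarcd1 lead the order and Smarca2, Actl6b and Dpf3 lie below 0.2.

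Smarcb1 (chr10:75896769-75921617, minus strand, mm10), the target of the shRNA, was low in all 9 kd libraries. It stood at 3.41, 3.46 and 3.93 FPKM in the 48 h ctrl and 3.31, 3.55 and 3.40 FPKM in the 240 h ctrl. After knockdown it was 0.503, 0.820 and 0.618 FPKM at 48 h, 0.541, 0.639 and 0.512 FPKM at 72 h, then 0.721, 0.621 and 0.638 FPKM at 240 h. No kd library reached a ctrl library, and the libraries matched their labels. The log2 change was -2.50 (SE 0.173, adjusted p = 0.000608) at 48 h, -2.68 (SE 0.0990, adjusted p = 1.05e-05) at 72 h and -2.37 (SE 0.0710, adjusted p = 1.23e-05) at 240 h. Of the mean ctrl level, 18.0%, 15.7% and 19.3% remained.

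The position of Smarcb1 relative to its partners moved accordingly. In the exon-scaled level, Smarcb1 was 105% ± 10.6 (SD, n = 3) of Smarce1 in the 48 h ctrl and 102% ± 8.16 in the 240 h ctrl. In the kd groups it was 18.2% ± 4.33, 16.4% ± 1.61 and 18.5% ± 2.08 of Smarce1 at 48 h, 72 h and 240 h. Relative to Smarca4, it went from 16.7% ± 1.60 and 15.6% ± 0.990 in the ctrl groups to 2.88% ± 0.775, 2.76% ± 0.391 and 3.01% ± 0.257. The change from 48 h to 240 h of knockdown did not pass the test for Smarcb1 (difference of log2 changes 0.13, 95% interval -0.32 to 0.57, adjusted p = 0.714).

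The other 27 tested subunits moved far less than Smarcb1. At 48 h, 1 of the 28 tested members was called, Smarcb1 itself, where 8.78% of all genes tested were called and 4.77% were called lower. At 72 h, 5 were called against a background of 22%, with Smarcc2 higher and Smarcb1, Smarcd3, Bcl11a and Bcl11b lower, where 12.2% of all genes were called higher and 9.81% lower. At 240 h, 3 were called against 17.3%, Smarcb1, Smarcd3 and Bcl11b, all lower, as were 7.81% of all genes. Without the fold minimum, 6, 14 and 13 members passed the adjusted p, which is 21.4%, 50% and 46.4% of those tested, next to 20.3%, 56.9% and 38.7% of all genes. These shares were near the background. The 48 h count was also 1 when 48 h kd replicate 2 was left out.

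The intervals bound how large these changes could be. Leaving out Smarcb1, the 95% interval lay entirely within 0.58 of 0 on the log2 scale for 20, 19 and 23 of the 27 members at 48 h, 72 h and 240 h. Their median absolute log2 change was 0.16, 0.15 and 0.14, beside 0.17, 0.29 and 0.22 over all genes tested. Their median log2 change was 0.06, -0.02 and -0.03, beside 0.01, 0.02 and 0.01 over all genes. Smarcb1, Smarcd1 and Smarcd3 passed the adjusted p as lower in each of the 3 comparisons, and Bicral passed as higher in each. Smarca4, Smarca2, Smarce1, Arid1b, Pbrm1, Phf10 and Bicra passed in none. No member passed in opposite directions. The share of all genes with each of these patterns was not computed, so they are not a result about the set. The 48 h and 72 h comparisons share their ctrl libraries, so a member's values in them are not independent.

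**Figure D2:**
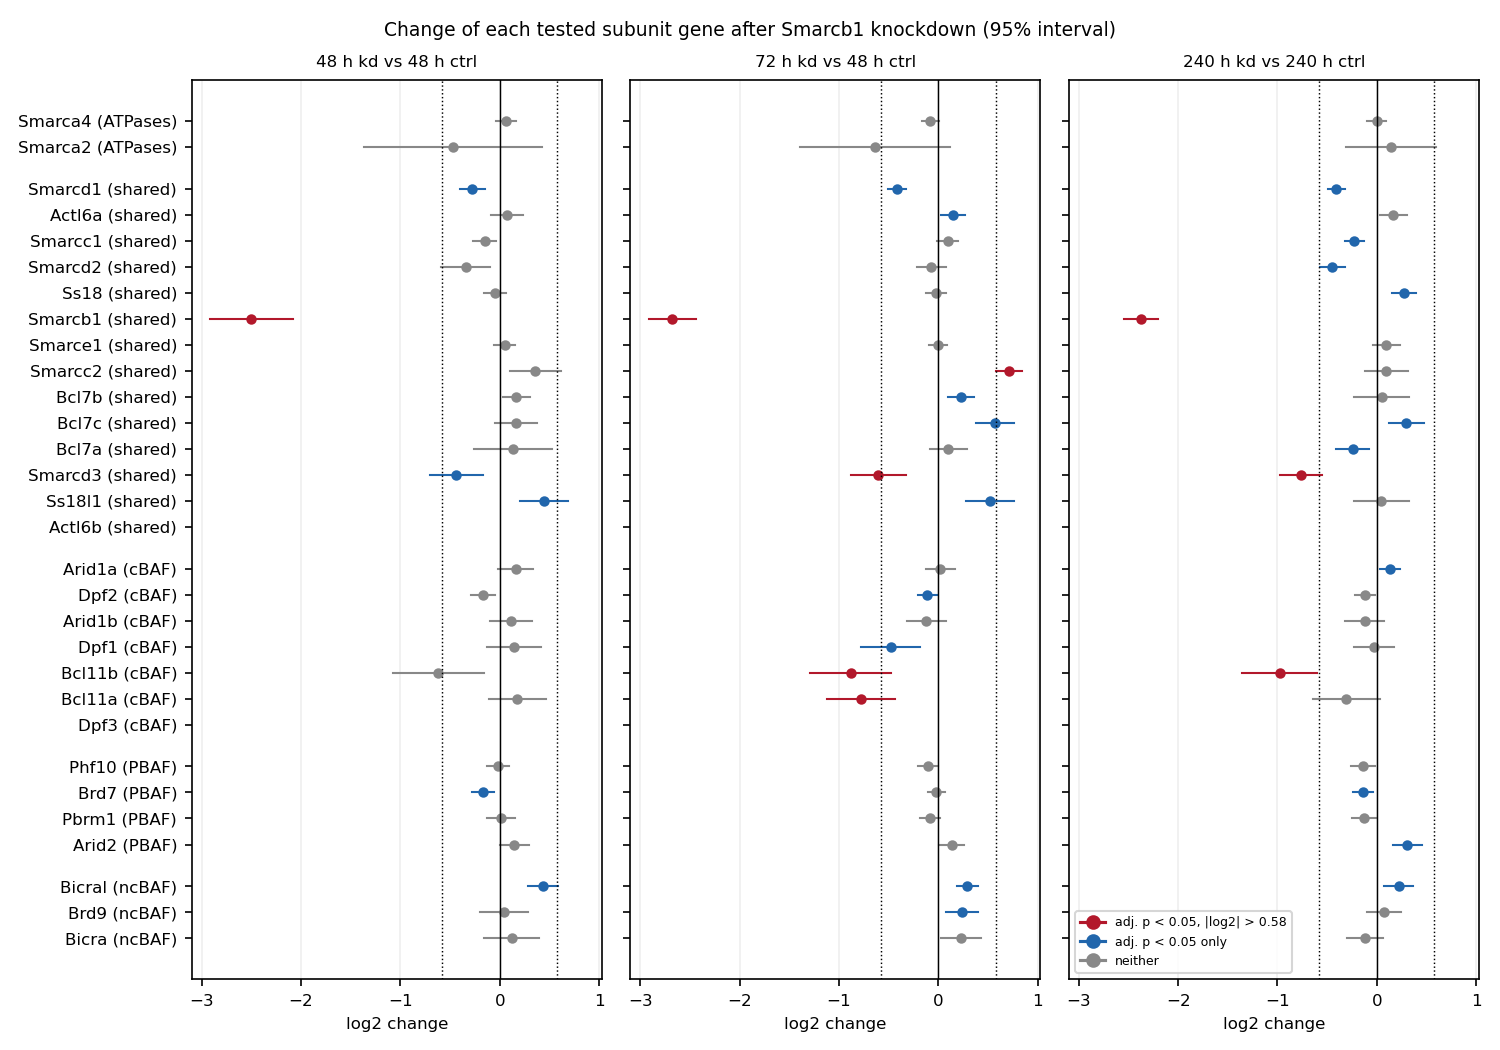
Log2 change (x axis) with its 95% interval for the 28 tested subunit genes in the 3 kd comparisons; red points passed the adjusted p and the fold minimum (dotted lines at 0.58 either side of 0), blue points the adjusted p only, grey points neither, and Actl6b and Dpf3 were not tested. Smarcb1 lies beyond -2 in each panel, and the other called members are Smarcc2, Smarcd3, Bcl11a and Bcl11b.

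The catalytic subunits did not pass the test in any kd comparison. Smarca4 was at 5.06, 4.99 and 4.90 FPKM in the 48 h ctrl and at 5.11, 4.90 and 5.20 FPKM in the 240 h ctrl. It was at 5.31, 5.09 and 5.20 FPKM at 48 h, 4.79, 4.59 and 4.76 FPKM at 72 h, then 5.03, 5.04 and 5.11 FPKM at 240 h of knockdown. The 15 libraries thus lay between 4.59 and 5.31 FPKM. Its log2 changes were 0.06 (95% interval -0.04 to 0.16), -0.08 (-0.16 to 0.00) and -0.00 (-0.10 to 0.09). Smarca2 was too low for a comparable bound: with 9 to 36 reads per library, the change at 72 h was -0.64 with an interval of -1.40 to 0.11.

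Among the scaffold subunits, Smarcc2 was higher at 72 h and Smarcc1 was lower at 240 h. Smarcc2 (chr10:128459248-128490482, plus strand) is the paralog of Smarcc1 that differentiated cells incorporate. It was at 1.19, 1.10 and 1.08 FPKM in the 48 h ctrl and at 1.40, 1.67 and 1.28 FPKM in the 48 h kd. At 72 h it was at 1.79, 1.85 and 1.86 FPKM, above all other libraries. At 240 h it was at 1.43, 1.37 and 1.57 FPKM in the kd and at 1.37, 1.48 and 1.23 FPKM in the ctrl, and these groups overlapped. The change was 0.36 (SE 0.106, adjusted p = 0.0566) at 48 h, 0.71 (SE 0.0540, adjusted p = 0.000105) at 72 h and 0.10 (SE 0.0890, adjusted p = 0.422) at 240 h. The size at 72 h depended on the control: against the 240 h ctrl it was 0.44 (adjusted p = 0.00305), under the fold minimum. Smarcc1 changed by -0.15 (adjusted p = 0.0654), 0.09 (adjusted p = 0.102) and -0.23 (adjusted p = 0.00521). The lower level at 240 h was measured on 3.20 to 3.31 FPKM in the kd against 3.73 to 3.89 FPKM in the ctrl.

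Of the Smarcd subunits, which link the complexes to transcription factors, Smarcd1 and Smarcd3 passed the adjusted p as lower at all 3 times and Smarcd2 at 240 h. Smarcd1 (chr15:99702129-99713991, plus strand), the main paralog in stem cells, was at 20.9, 22.5 and 22.2 FPKM in the 48 h ctrl and at 23.1, 23.3 and 24.1 FPKM in the 240 h ctrl. It was at 18.3, 17.3 and 18.6 FPKM at 48 h, 16.4, 16.1 and 16.8 FPKM at 72 h, then 17.9, 17.7 and 17.5 FPKM at 240 h of knockdown, below every ctrl library. The changes of -0.28 (adjusted p = 0.014), -0.42 (adjusted p = 0.000242) and -0.41 (adjusted p = 0.000307) passed the adjusted p and not the fold minimum. Within the Smarcd1 span lie Gm17349 and Gm34939 on the other strand, which held reads equal to 17.8% and 11.2% of those of Smarcd1. Both were lower as well, Gm17349 by -0.40, -0.32 and -0.35 and Gm34939 by -0.51, -0.39 and -0.31, with adjusted p of at most 0.0107. Without the reads of Gm17349, Smarcd1 was still at 217 ± 7.88 and 226 ± 4.94 RPM (reads scaled to the library total) in the ctrl groups and at 182 ± 6.20, 160 ± 3.99 and 169 ± 2.57 in the kd groups (SD, n = 3).

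Smarcd2 was lower at 240 h, at 5.70 to 6.28 FPKM in the kd against 7.90 to 8.51 FPKM in the ctrl (-0.45, adjusted p = 0.000945). At 72 h it was at 8.35 to 8.65 FPKM, overlapping the 8.44 to 9.85 FPKM of the 48 h ctrl (-0.07, adjusted p = 0.375), and at 48 h its change was -0.35 (adjusted p = 0.0592). It rose from 48 h to 72 h of knockdown by 0.28 (adjusted p = 0.0496). A difference in time course between Smarcd2 and Smarcd1 was not tested.

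Smarcd3 (chr5:24590818-24624411, minus strand), known from heart and neural tissue, was at 0.484, 0.462 and 0.584 FPKM in the 48 h ctrl and at 0.448, 0.496 and 0.521 FPKM in the 240 h ctrl. It was at 0.362, 0.401 and 0.360 FPKM at 48 h, 0.330, 0.364 and 0.309 FPKM at 72 h, then 0.287, 0.275 and 0.300 FPKM at 240 h of knockdown. No kd library reached a ctrl library. The change was -0.44 (SE 0.112, adjusted p = 0.0375), -0.60 (SE 0.114, adjusted p = 0.00436) and -0.76 (SE 0.0890, adjusted p = 0.00101). The call at 72 h was close to the fold minimum and was lost without 48 h ctrl replicate 3 (-0.50) or 72 h kd replicate 3 (-0.55), against the 240 h ctrl (-0.54) or both ctrl groups (-0.57), with a pseudocount of 0.1 FPKM (-0.49) and after rescaling to TPM (-0.58). Chpf2, on the other strand, overlaps 3739 bases of the Smarcd3 span, and the strand used in counting is not given in the sources used here. Chpf2 held reads equal to 105% of those of Smarcd3, and how many of them lie in the overlap was not measured. Taking off all Chpf2 reads left Smarcd3 at 1.88 ± 1.05 and 0.630 ± 0.800 RPM in the 48 h and 240 h ctrl and at -0.622 ± 0.622, -0.248 ± 0.839 and -4.57 ± 0.690 at 48 h, 72 h and 240 h of knockdown (SD, n = 3). Values below 0 arise where Chpf2 had more reads than Smarcd3. Reads of Smarcd3 itself can therefore not be told apart from shared reads, in its level or in its calls. At 240 h Chpf2 changed by -0.15 (adjusted p = 0.209) where Smarcd3 changed by -0.76, and at 72 h both were lower, Chpf2 by -0.41 (adjusted p = 0.00337).

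**Figure D3:**
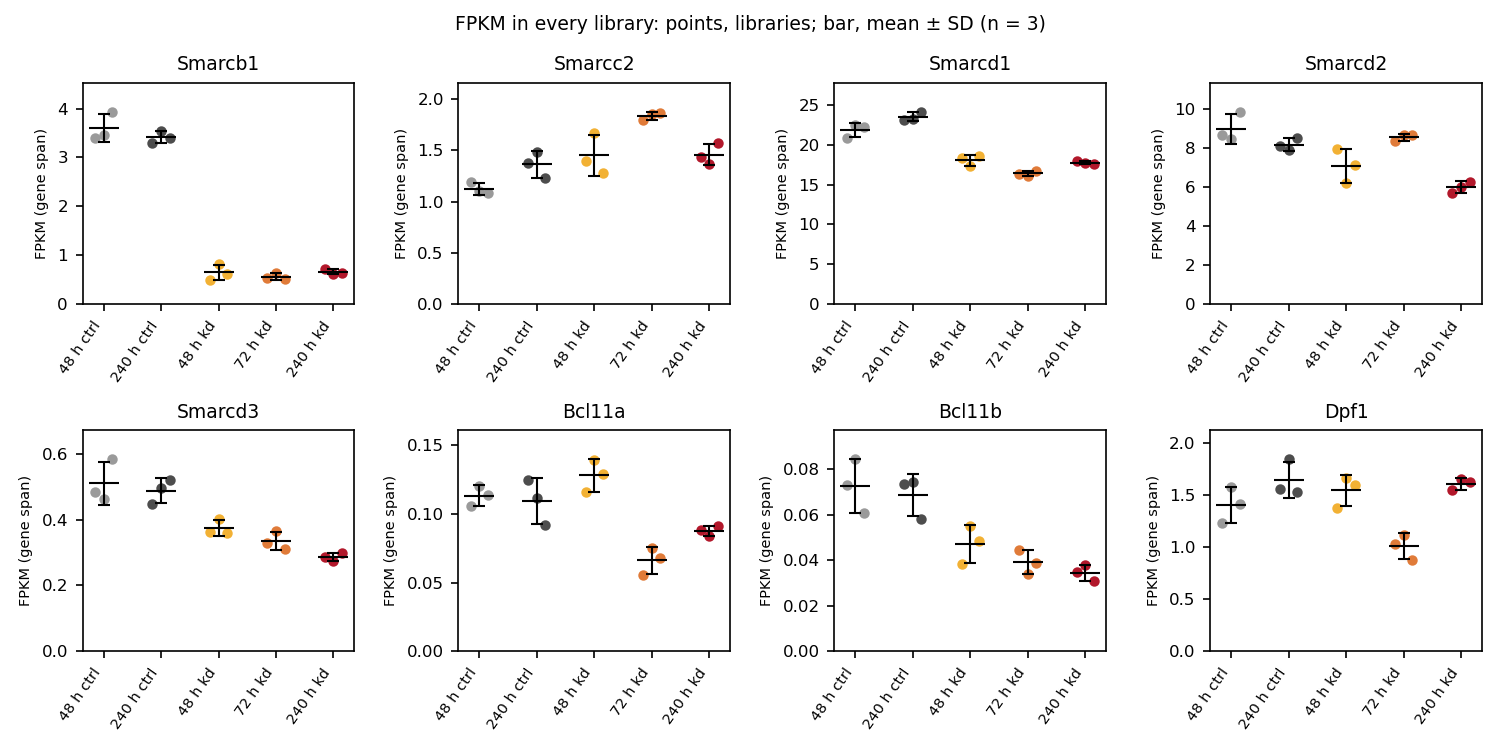
FPKM over the gene span (y axes from 0) of 8 subunit genes in each library, in the order 48 h ctrl, 240 h ctrl, 48 h kd, 72 h kd and 240 h kd; points are libraries, and the bar and whiskers give the mean and SD of 3. Smarcb1, Smarcd1, Smarcd3 and Bcl11b are below all ctrl libraries in every kd group, Smarcc2 is highest at 72 h, and Bcl11a and Dpf1 are lowest at 72 h.

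None of the remaining shared subunits was called in a kd comparison, and Bcl7c and Ss18l1 came nearest to the fold minimum. Smarce1, a DNA-binding core subunit, changed by 0.05, -0.00 and 0.09, with intervals within -0.10 to 0.23 over the 3 comparisons. Actl6a changed by 0.08, 0.15 (adjusted p = 0.0452) and 0.17 (adjusted p = 0.0584). Bcl7c, an accessory subunit, was higher at 72 h by 0.57 (adjusted p = 0.00112), at 1.01 to 1.10 FPKM against 0.651 to 0.759 FPKM, and at 240 h by 0.30 (adjusted p = 0.0178). Of its paralogs, Bcl7b was also higher at 72 h by 0.23 (adjusted p = 0.0123) and Bcl7a was lower at 240 h by -0.24 (adjusted p = 0.0316). Ss18l1, the neuronal counterpart of Ss18, was higher at 48 h by 0.45 (adjusted p = 0.0263) and at 72 h by 0.52 (adjusted p = 0.00461), with 0.326 to 0.372 FPKM in these kd libraries against 0.220 to 0.266 FPKM in the 48 h ctrl. At 240 h, where the ctrl itself was at 0.279 to 0.340 FPKM, its change was 0.05 (adjusted p = 0.781). Ss18 was higher at 240 h by 0.27 (adjusted p = 0.00693). Actl6b had 3 to 6 reads per 48 h ctrl library, 5 to 9 at 48 h and 9 to 11 at 72 h of knockdown, then 1 to 4 in the 240 h ctrl and 1 to 2 in the 240 h kd, too few for a test.

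Of the 7 cBAF subunits, the DNA-binding Arid1a and the reader Dpf2 held most of the exon-scaled level of their families, 87.4% and 77.5% in the 48 h ctrl, and the low-level zinc finger proteins Bcl11a and Bcl11b were called in 1 or more of the 3 kd comparisons. Arid1a (chr4:133679008-133756769, minus strand) was at 6.51, 6.07 and 5.63 FPKM in the 48 h ctrl, 6.38, 7.20 and 6.73 FPKM in the 48 h kd and 6.25, 5.89 and 6.28 FPKM in the 72 h kd, and these groups overlapped. At 240 h it was at 8.64, 8.26 and 8.51 FPKM in the kd and at 8.06, 7.61 and 7.53 FPKM in the ctrl, a change of 0.13 (adjusted p = 0.0484). Arid1b changed by 0.11, -0.12 and -0.12, with adjusted p of 0.397, 0.258 and 0.283. Dpf2 was lower at 72 h by -0.11 (adjusted p = 0.0483).

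Bcl11b (chr12:107910403-108003602, minus strand), a transcription factor of T cells and neurons that is also a cBAF subunit, was at 0.0728, 0.0842 and 0.0607 FPKM in the 48 h ctrl and at 0.0733, 0.0741 and 0.0578 FPKM in the 240 h ctrl. It was at 0.0382, 0.0549 and 0.0484 FPKM at 48 h, 0.0444, 0.0339 and 0.0388 FPKM at 72 h, then 0.0350, 0.0377 and 0.0307 FPKM at 240 h of knockdown. Every kd library was below every ctrl library, and the FPKM values rest on 39 to 93 reads per library. The changes were -0.62 (SE 0.192, adjusted p = 0.0665) at 48 h, -0.88 (SE 0.171, adjusted p = 0.00487) at 72 h and -0.98 (SE 0.158, adjusted p = 0.00387) at 240 h. The value at 48 h was past the fold minimum and missed the adjusted p, which it passed under voom weights (adjusted p = 0.0246), after rescaling to TPM (adjusted p = 0.0462) and in 1 fit of all 15 libraries (adjusted p = 0.0162). At 72 h and 240 h the calls were lost with a pseudocount of 0.1 FPKM (-0.31 and -0.32), which is above the gene's own level, and with no minimum of reads (adjusted p = 0.0553 and 0.0534).

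Bcl11a (chr11:24078056-24174123, plus strand), known for fetal globin silencing and for roles in B cells and neurons, was lowest at 72 h. It was at 0.106, 0.120 and 0.114 FPKM in the 48 h ctrl and at 0.116, 0.139 and 0.129 FPKM in the 48 h kd, which overlapped. At 72 h it was at 0.0553, 0.0750 and 0.0682 FPKM, below all other libraries. At 240 h it was at 0.0885, 0.0839 and 0.0910 FPKM in the kd and at 0.125, 0.112 and 0.0919 FPKM in the ctrl. The changes were 0.17 (SE 0.120, adjusted p = 0.347), -0.78 (SE 0.143, adjusted p = 0.00383) and -0.31 (SE 0.141, adjusted p = 0.132). With a pseudocount of 0.1 FPKM, the value at 72 h was -0.36, under the fold minimum. The antisense gene 4930538E20Rik, inside the Bcl11a span, held reads equal to 53.8% of those of Bcl11a and changed by -0.77 at 72 h (adjusted p = 0.00251). Without its reads, Bcl11a stood at 4.84 ± 0.232 RPM in the 48 h ctrl, 4.67 ± 0.601 in the 240 h ctrl and at 6.12 ± 0.568, 2.84 ± 0.630 and 3.93 ± 0.157 at 48 h, 72 h and 240 h of knockdown (SD, n = 3).

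Dpf1 (chr7:29303951-29318243, plus strand), the neuronal relative of Dpf2, was also lowest at 72 h. It was at 1.23, 1.58 and 1.42 FPKM in the 48 h ctrl, 1.38, 1.66 and 1.60 FPKM in the 48 h kd and 1.03, 1.12 and 0.875 FPKM in the 72 h kd. At 240 h it was at 1.55, 1.66 and 1.62 FPKM in the kd and at 1.56, 1.85 and 1.53 FPKM in the ctrl, which overlapped. The change at 72 h against the 48 h ctrl was -0.48 (SE 0.123, adjusted p = 0.015), under the fold minimum. Against the 240 h ctrl it was -0.71 (adjusted p = 0.0022). The antisense gene Gm44632 overlaps Dpf1 and held reads equal to 29.9% of its own. It was lower too, by -0.49 at 72 h against the 48 h ctrl (adjusted p = 0.034) and by -0.85 against the 48 h kd (adjusted p = 0.00414). Without its reads Dpf1 stood at 14.3 ± 1.59 RPM in the 48 h ctrl, 16.8 ± 2.03 in the 240 h ctrl and 10.3 ± 1.37 in the 72 h kd. Dpf3, with 3 to 6 reads per 48 h ctrl library, 1 to 3 per 48 h or 72 h kd library and 5 to 7 per 240 h kd library, was not tested.

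The summed level of neuronal markers was lowest in the 72 h kd libraries, in which Dpf1 and Bcl11a were lowest too. The 6 neuron markers summed to 13 to 15.4 FPKM in the ctrl libraries, 12.9 to 16.9 at 48 h, 8.05 to 8.41 at 72 h and 15.2 to 16.3 at 240 h of knockdown. At 72 h, 3 of the 5 tested were called lower, Tubb3 (-0.88), Map2 (-1.36) and Rbfox3 (-1.09), and Snap25 was called higher (0.70), while Dcx was at 0 in both groups. At 48 h Map2 (-0.71) and Rbfox3 (-1.04) were already called lower, and at 240 h Rbfox3 (-0.87) and Snap25 (-1.06) were called lower, while the sums of the kd and ctrl libraries overlapped at both times. The neural progenitor sum moved the other way, from 7.57 to 8.89 FPKM in the ctrl libraries to 13.1 to 20.9 FPKM in the kd libraries, with Sox1 called higher at all 3 times. Nes passed the adjusted p as lower at 48 h (-0.44, adjusted p = 0.0222) and 72 h (-0.50, adjusted p = 0.00446) and was called higher at 240 h (0.66), while Pax6 was called lower at 48 h and 72 h and Olig2 was at 0 at 72 h. Trophoblast markers summed to 7.10 to 9.28 FPKM in the ctrl libraries, 5.57 to 6.01 at 48 h, 16.4 to 17.0 at 72 h and 12.4 to 12.9 at 240 h of knockdown, and 4 of the 5 had under 10 reads at 48 h and 72 h. The one tested there, Tfap2c, was called lower at 48 h (-0.62) and higher at 72 h (0.92).

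Markers of several other cell types were also higher at 240 h of knockdown, when Smarcd1, Smarcd2, Smarcd3 and Bcl11b were lower than in the 240 h ctrl. The 3 trophoblast markers tested were called higher, Cdx2 (2.19), Hand1 (3.18) and Tfap2c (0.65). Of the primitive endoderm markers, 2 of 3 tested were called higher, Gata6 (1.12) and Dab2 (0.90), and the list summed to 0.310 to 0.408 FPKM in the 240 h kd against 0.169 to 0.277 in the 240 h ctrl. Fibroblast markers summed to 1.41 to 1.66 FPKM against 0.888 to 1.01, with Col1a1 (1.81), Col1a2 (2.08) and Pdgfra (1.21) called higher, while Thy1 was lower (-0.51, adjusted p = 0.00401) and under the fold minimum. At 48 h and 72 h the fibroblast sum was at most 0.854 FPKM in the kd, Col1a1 was called higher (0.74 and 0.80) and Thy1 lower (-0.98 and -1.12), and no primitive endoderm marker was called. Mesoderm markers summed to 0.624 to 1.22 FPKM over all groups, and Eomes was called lower at 48 h (-0.72) and 240 h (-1.05). The part of other cell types in the values of the subunit genes was not tested.

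The PBAF subunits were not called in any kd comparison. Phf10 (chr17:14945009-14961273, minus strand), a reader subunit, was at 7.77, 7.61 and 8.09 FPKM in the 48 h ctrl and at 7.53, 7.10 and 6.70 FPKM in the 240 h ctrl. It was at 7.96, 7.70 and 7.53 FPKM at 48 h, 7.46, 7.46 and 6.96 FPKM at 72 h, then 6.43, 6.49 and 6.44 FPKM at 240 h of knockdown. Its changes were -0.02, -0.10 and -0.14, with adjusted p of 0.832, 0.0836 and 0.068. The gene 1600012H06Rik covers 14562 bases of the Phf10 span on the other strand and held reads equal to 114% of those of Phf10, so the level of Phf10 and its rank are uncertain.

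Brd7, a bromodomain subunit that overlaps no listed gene, was lower at 240 h by -0.14 (adjusted p = 0.0373), at 3.46 to 3.63 FPKM against 3.86 to 4.01 FPKM. At 48 h its change of -0.17 had an adjusted p that rounds to 0.05 and lies just under it. Arid2 was higher at 240 h by 0.31 (adjusted p = 0.00869), at 2.02 to 2.14 FPKM against 1.58 to 1.80 FPKM. At 48 h and 72 h its changes were 0.14 and 0.13, with adjusted p of 0.147 and 0.0644. Pbrm1, which carries the bromodomains that give PBAF its name, changed by 0.01, -0.08 and -0.13, with adjusted p of 0.926, 0.142 and 0.0775. Smim4 shares 33461 bases of the Pbrm1 span and held reads equal to 65.3% of its own, so the level of Pbrm1 is uncertain too.

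In ncBAF, the only one of these complexes without Smarcb1, the 3 subunits had no call. Bicral passed the adjusted p as higher at all 3 times. Bicral (chr17:46798120-46858482, minus strand), a scaffold that overlaps no listed gene, was at 1.50, 1.43 and 1.40 FPKM in the 48 h ctrl and at 1.65, 1.60 and 1.64 FPKM in the 240 h ctrl. It was at 1.89, 2.08 and 1.90 FPKM at 48 h, 1.77, 1.77 and 1.78 FPKM at 72 h, then 2.05, 1.85 and 1.81 FPKM at 240 h of knockdown. Every kd library was above every ctrl library. The changes were 0.44 (SE 0.0630, adjusted p = 0.00562), 0.29 (SE 0.0450, adjusted p = 0.00189) and 0.22 (SE 0.0620, adjusted p = 0.0308). Brd9, the bromodomain subunit that defines ncBAF, was higher at 72 h by 0.24 (adjusted p = 0.0216) and changed by 0.04 and 0.07 at 48 h and 240 h (adjusted p = 0.798 and 0.479). The antisense gene Gm41002 held reads equal to 23.1% of those of Brd9, and Gm38948 inside the Bicra span 40.1% of those of Bicra. Bicra changed by 0.12, 0.23 and -0.12, with adjusted p of 0.509, 0.055 and 0.255.

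Between the untreated cultures of 240 h and 48 h no member was called by limma or by limma voom, where 0.654% of all genes tested were called. That share rests on 106 genes, and leaving out a library gave 0 to 2. Of the 28 tested, 11 had an unadjusted p under 0.05, which is 39.3% next to 25% of all genes. Arid1a passed the adjusted p, 1 of 28 next to 2.8% of all genes, and was higher at 240 h by 0.35 (adjusted p = 0.0458). Smarcc2 changed by 0.27 (adjusted p = 0.116), Ss18l1 by 0.33 (adjusted p = 0.151) and Bicra by 0.33 (adjusted p = 0.0876) in the same untreated cells.

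From 48 h to 72 h of knockdown, without use of a control, Dpf1 (-0.62, adjusted p = 0.00766) and Bcl11a (-0.96, adjusted p = 0.00473) were called lower, 2 of 28 where 12.7% of all genes were called and 5.76% were called lower. The Dpf1 call was lost without 48 h kd replicate 2 (-0.57) or without 72 h kd replicate 3 (-0.52), with TPM (-0.56) and with a pseudocount of 0.1 FPKM (-0.57). Without the fold minimum, Smarcc1 (0.25, adjusted p = 0.00718), Smarcc2 (0.35, adjusted p = 0.0332), Smarcd2, Bcl7c (0.41, adjusted p = 0.00626) and Brd7 (0.15, adjusted p = 0.0496) were higher and Smarca4 was lower (-0.14, adjusted p = 0.0406). That makes 8 of 28, or 28.6% next to 36.8% of all genes.

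The knockdown effect at 240 h was compared with that at 48 h in an interaction over 12 libraries. No member was called by limma or limma voom, where 10.1% of all genes were. Of the 28 tested, 7 had an unadjusted p under 0.05, which is 25% next to 31.1% of all genes. Ss18 passed the adjusted p without reaching the fold minimum (0.31, SE 0.0600, adjusted p = 0.00493), 1 of 28 next to 17.7% of all genes. For Bcl11a the difference was -0.48 (adjusted p = 0.0886), and without 240 h ctrl replicate 3 it was -0.60 (adjusted p = 0.0299) and called. For Smarcd3 it was -0.32 with a 95% interval of -0.63 to -0.01 (adjusted p = 0.144), and for Bcl11b -0.36 with an interval of -0.91 to 0.19 (adjusted p = 0.363).

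Where paralogs compete for a position, the share of each in the summed exon-scaled level of its family describes the RNA available. These shares are descriptions, with no test. Smarca4 held 99.8% of the ATPase level in both ctrl groups and between 99.8% and 99.9% in the kd groups. Smarcc2 held 10.8% ± 0.328 of the Smarcc level in the 48 h ctrl and 11.4% ± 1.09 in the 240 h ctrl. It held 14.7% ± 1.66, 15.6% ± 0.525 and 13.8% ± 0.637 at 48 h, 72 h and 240 h of knockdown (SD, n = 3), so that every kd library was above every ctrl library. The size of a share depends on the length used: per kb of gene span, Smarcc2 held 25.1% and 26.3% in the 48 h and 240 h ctrl and 32.4%, 33.9% and 30.9% in the kd groups, again with every kd library above every ctrl library.

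In the Smarcd family, Smarcd2 held 31.6% ± 0.527 at 72 h of knockdown, against 26.5% ± 1.52 in the 48 h ctrl, while at 240 h it held 23.2% ± 1.02 against 23.5% ± 0.372. Arid1b held 12.6% ± 0.528 of the Arid1 level in the 48 h ctrl, 11.1% ± 0.220 in the 240 h ctrl and 9.50% ± 0.156 in the 240 h kd, which per kb of gene span were 3.38%, 2.93% and 2.47%. Ss18l1 was at 9.68% ± 0.881 of its pair in the 48 h ctrl and 12.9% ± 0.584 in the 240 h ctrl, with 13.1% ± 0.0809, 13.5% ± 0.434 and 11.3% ± 0.940 in the kd groups. The 240 h ctrl and the 48 h kd thus held similar shares of this pair. Bcl11b held 50.1% ± 3.86 and 49.7% ± 1.52 of its pair in the ctrl groups and 36.6% ± 2.11, 48.2% ± 7.19 and 38.2% ± 3.36 in the kd groups. Dpf1 held 21.9% ± 2.41 of the Dpf level in the 48 h ctrl and 17.9% ± 2.08 at 72 h, and Bcl7c held 31.3% ± 2.54 and 37.4% ± 0.581 of the Bcl7 level in the same groups.

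**Figure D4:**
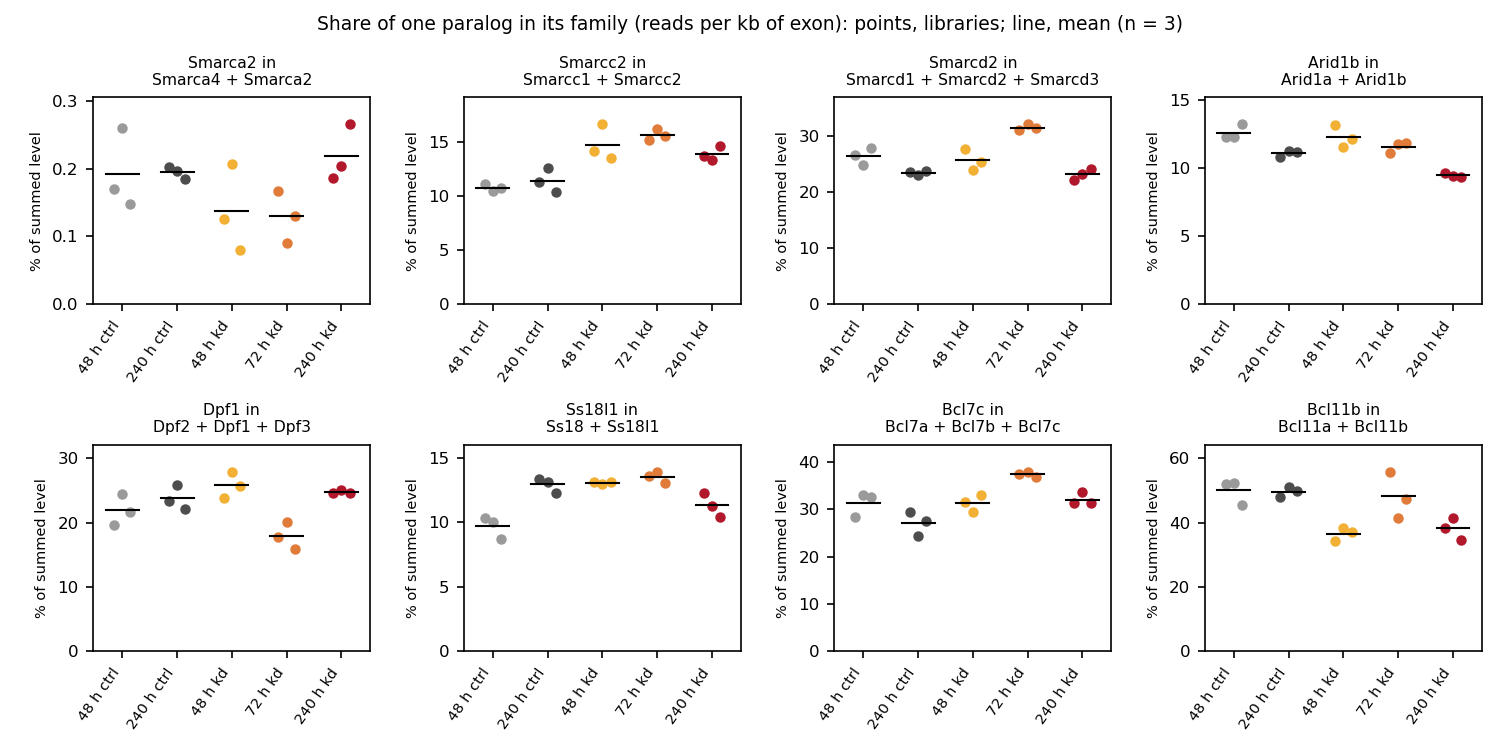
Share (%) of 8 paralogs in the summed exon-scaled level of their families, y axes from 0, by group; points are libraries and lines the mean of 3. Smarcc2 is above its ctrl libraries in all kd groups, Smarcd2 and Bcl7c are highest at 72 h, Bcl11b is lower at 48 h and 240 h, and Smarca2 stays below 0.3%.

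Other chromatin regulators give a scale for these counts. Of 23 ATPases of other remodeller families, none was called at 48 h, Chd5 (0.76) was higher and Smarca1 (-0.74) lower at 72 h, and Chd3 (-0.85) was lower at 240 h. Without the fold minimum, 4, 17 and 8 of the 23 passed the adjusted p at 48 h, 72 h and 240 h, next to 20.3%, 56.9% and 38.7% of all genes. Of 12 Polycomb PRC2 genes, Phf19 was called lower at 48 h, Ezh1 and Phf1 higher and Eed, Phf19 and Epop lower at 72 h, and Aebp2 higher at 240 h, which makes 1, 5 and 1 of 12 where 8.78%, 22% and 17.3% of all genes were called. Without the fold minimum 4, 11 and 7 of the 12 passed. Actb, the actin that is also a subunit and was not a member here, changed by -0.35, -0.39 and -0.22 and was not called. It passed the adjusted p as lower at 72 h and 240 h, under the fold minimum.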

How the data were processed

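Single-read RNA-seq of 15 libraries (5 groups of 3) was analysed. Per the labels and methods, the authors aligned reads with STAR 2.7.0c to mm10 (GRCm38.p6), counted them with Bioconductor packages and used DESeq2 1.30.0 in R 4.0.3 for their tests. The annotation release and the strand setting used to count RNA-seq reads are not given in the sources used here, and the methods name a GENCODE release, later than the one used here, for assigning ChIP-seq peaks to genes. The authors deposited FPKM per gene, computed over the whole gene span and 1 total per library. The library totals were inferred from these values, by fitting the size of 1 read so that FPKM multiplied by span became whole. With these totals, 100% of values gave whole reads (tolerance 0.001), and all read numbers rest on that inference. Reads summed over genes exceeded the totals by 7.38% to 8.34%. Exon lengths came from GENCODE M21, matched by position and symbol for 96.5% of genes.

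FPKM are not counts, so limma 3.58.1 (trend, R 4.3.3) was fitted to log2(FPKM + the FPKM worth of 0.5 reads) for genes whose mean over the fitted libraries reached 10 reads, each kd group against its ctrl, with Benjamini-Hochberg adjustment over all genes and two-sided tests. A minimum of 0.5 FPKM would drop long subunit genes with many reads, since the unit is per gene span, and is given as an alternative together with a pseudocount of 0.1 FPKM. The fit was also run on simulated reads with the same relative spread for every gene and no library effects. That does not test it on libraries that stand apart from their group. Exon-scaled levels include intronic reads. Library totals were 11074998 to 14515300 reads, and no replicate pair agreed within sampling noise (chi-square per degree of freedom 1.3 to 11.3). Members and lists were chosen with earlier results of these data known. Values by library are given for Smarcb1, for members called in a knockdown, interaction or 72 h against 48 h comparison and for the highest member of each role group. Others are given mostly by range. Genes overlapping members were counted from the file spans. Motif shares cover windows of 250 bases. Alternatives were pseudocounts, filters, TPM, voom weights, a pooled fit, a replicate block, other controls and leaving out each library. Matplotlib 3.10.9 drew the figures.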

Additional observations from a re-analysis of the deposited data

Results flagged for a closer look

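Ss18 differed between times by the interaction test: the knockdown effect at 240 h exceeded that at 48 h by 0.31 on the log2 scale (adjusted p = 0.00493 by limma), from -0.05 at 48 h and 0.27 at 240 h. Its untreated level was 2.36 to 2.37 FPKM at 48 h and 2.04 to 2.25 FPKM at 240 h, and its kd level 2.24 to 2.32 FPKM and 2.55 to 2.61 FPKM.

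For Ss18 (48 h and 240 h), Smarca4, Smarcc1, Arid1b and Bicra, all kd libraries lay on opposite sides of their ctrl libraries at 2 times. How many of all genes did so was not counted, so this is not a result about the set. The 48 h and 72 h comparisons share their ctrl libraries. Smarca4 changed by 0.062 at 48 h and -0.080 at 72 h, and the 72 h kd was lower than the 48 h kd by -0.14 (adjusted p = 0.0406 by limma). Smarcc1 changed by -0.154 at 48 h, 0.093 at 72 h and -0.227 at 240 h, and the 72 h kd was higher than the 48 h kd by 0.25 (adjusted p = 0.00718). Arid1b changed by 0.114 at 48 h, -0.119 at 72 h and -0.12 at 240 h, with -0.23 between the 48 h and 72 h kd groups (adjusted p = 0.077). Its knockdown effect at 240 h minus that at 48 h was -0.24 and did not pass the interaction test (adjusted p = 0.129). Bicra changed by 0.229 at 72 h and -0.121 at 240 h. The difference between 72 h and 240 h was not tested for Smarcc1 or Bicra.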

How the results depend on the processing

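Smarcb1 kept its direction and call under every alternative run, at -2.68 to -2.33 (48 h), -2.77 to -2.48 (72 h) and -2.44 to -2.21 (240 h). The number of members called at 48 h was 1 and became 2 with TPM, voom or 1 fit of all libraries. At 72 h it was 5 and became 2 with a pseudocount of 0.1 FPKM, alone or together with a minimum of 0.5 FPKM, 1 with a fold above 2, and 3 without members overlapping other genes (3 also without those in which the overlap held at least 10% of reads, an alternative chosen after seeing the data). At 240 h it was 3 and became 1 with both of these together or a fold above 2, and 2 with that pseudocount alone, with no minimum or a minimum of 100 reads, and without overlapping members under either rule. For 72 h against 48 h kd it was 2 and became 0 with the 0.1 FPKM pseudocount, alone or together with that minimum, with a fold above 2 and without overlapping members under either rule, and 1 with TPM. Without the fold minimum the counts were 6, 14 and 13 at 48 h, 72 h and 240 h, 1 between ctrl groups, 8 for 72 h against 48 h kd and 1 for the interaction. Leaving out each library gave 1 to 1, 5 to 6, 3 to 3, 0 to 0, 1 to 2 and 0 to 1 in the same order. The cause of these shifts was not tested, except that fewer genes or members enter where a filter removes them and that a pseudocount of 0.1 FPKM shrinks the changes of genes with low FPKM.

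The labels do not say whether replicate numbers pair the libraries. Correlations of same-numbered libraries, as deviations from group means, ran from -0.45 to 0.45. Some were above and some below the highest correlation between different numbers, so pairing was not settled. With the replicate block, members called were 1, 5, 3, 0, 2 and 0, as without it, and all genes called were 1088 in place of 1415 at 48 h and 62 in place of 106 between ctrl groups. All genes called ranged over the other alternatives from 456 to 3263 at 48 h (1415 as reported), 1484 to 9192 at 72 h (3547), 1016 to 6430 at 240 h (2873), 0 to 454 between ctrl groups (106), 650 to 5930 for 72 h against 48 h kd (2038) and 664 to 2903 for the interaction (1661). Between ctrl groups, leaving out a library gave 0 to 2 genes. Signs turned for values near 0 that passed no test. Dpf1 at 240 h ranged from -0.077 to 0.058 when a library was left out, and was 0.058 without 240 h ctrl replicate 2 and 0.001 without 240 h kd replicate 1. Between ctrl groups, Smarcd3 was 0.053, Bcl11a 0.053 and Bcl11b 0.031 with TPM. Leaving out a library moved these from -0.126 to 0.043, from -0.159 to 0.061 and from -0.202 to 0.035, with Smarcd3 above 0 when 48 h ctrl replicate 3 (0.043) or 240 h ctrl replicate 1 (0.002) was omitted, Bcl11a when 240 h ctrl replicate 3 was (0.061), and Bcl11b when 48 h ctrl replicate 2 (0.033) or 240 h ctrl replicate 3 (0.035) was. Against both ctrl groups at 72 h, Smarcc2 changed by 0.57 and Smarcd3 by -0.57, under the fold minimum. Per kb of gene span in place of exon, shares in the 48 h ctrl were 74.9% for Smarcc1, 99.8% for Actl6a, 96.6% for Arid1a, 38.4% for Bcl7a, 81.7% for Bicral, 76.4% for Brd7 and 61.1% for Bcl11a. Depth limits Smarca2, Bcl11b, Actl6b and Dpf3 most.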

Other observations

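Outside the comparisons, the levels of Actl6a and its neuronal paralog Actl6b may be set side by side as shares. Actl6b held 0.134% ± 0.0489 of the pair in the 48 h ctrl, 0.227% ± 0.0808 in the 48 h kd and 0.278% ± 0.0331 in the 72 h kd (SD, n = 3). At 240 h it held 0.0793% ± 0.0524 in the ctrl and 0.0355% ± 0.0126 in the kd, each on 1 to 11 reads per library.

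The bromodomain paralogs Brd7 and Brd9 mark PBAF and ncBAF. Brd9 held 14.7% ± 0.747 of their summed exon-scaled level in the 48 h ctrl and 16.4% ± 1.32 in the 240 h ctrl. In the kd groups it held 16.7% ± 2.21, 17.1% ± 0.888 and 18.5% ± 0.717. Per kb of gene span its share was 23.6% and 26.0% in the ctrl groups and 26.4%, 27.0% and 28.8% in the kd groups. Bicral held 80.2% ± 0.919 and 78.4% ± 0.868 of its pair with Bicra in the ctrl groups and 83.4% ± 0.995, 80.8% ± 0.636 and 82.1% ± 0.887 in the kd groups. No test was run on these shares.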
